A study of Arabidopsis thaliana with 8 samples.

Results

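Dehydrins and the cold-responsive proteins made beside them are highly hydrophilic. Plant cells accumulate these proteins when they lose water, freeze or receive the hormone abscisic acid. Dehydrins carry lysine-rich segments that bind membranes and other proteins, and members of the wider group protect membranes and enzymes against drying and freezing. Their promoters are textbook targets of bZIP factors, which bind ACGT-containing elements such as the G-box and the abscisic acid response element, and of CBF/DREB factors, which bind the C-repeat. GBF2, the protein mapped here, is a bZIP factor of the G-box type.

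Binding of GBF2 to 10 such genes of Arabidopsis thaliana was examined. They were chosen by gene ID, with earlier results of these data known. The dehydrin genes are ERD10 (AT1G20450), COR47 (AT1G20440), ERD14 (AT1G76180), RAB18 (AT5G66400) and LTI30 (AT3G50970). The cold- and dehydration-responsive genes are KIN1 (AT5G15960), KIN2 (AT5G15970), COR15A (AT2G42540), RD29A (AT5G52310) and RD29B (AT5G52300). These members are 10 of 27444 protein-coding nuclear genes. A peak counted for a gene when the authors' files assigned it to that gene. Peaks of these genes numbered 4 of 767 in the tunicamycin list, 3 of 502 in the list of tunicamycin-specific peaks and 1 of 320 in the DMSO list.

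Chromatin was immunoprecipitated with an antibody against GFP from whole seedlings that carried pGBF2:GBF2-Ypet, a fusion of GBF2 to a yellow fluorescent protein under the GBF2 promoter, in the Col-0 background. Seedlings were 5 days old and received, for 6 h, tunicamycin at 0.5 µg/mL, which blocks N-glycosylation and so causes stress of the endoplasmic reticulum, or in the solvent DMSO alone. The groups were tunicamycin-treated immunoprecipitated chromatin, tunicamycin-treated input, DMSO-treated immunoprecipitated chromatin and DMSO-treated input, each with 2 biological replicates per the labels, and every group carried the transgene. The deposited files hold peaks per treatment and no value per library, so depth and replicate spread are unknown and no comparison below could be tested over samples. The peak score is the authors' own value, and it orders peaks within a list but not between lists.

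GBF2 peaks lay at 4 of the 10 genes after tunicamycin: the dehydrin genes ERD10, COR47 and ERD14 and the cold-responsive gene KIN2. For comparison, the tunicamycin list named 2.27% of all protein-coding genes. The 10 genes were chosen with earlier results of these data known, so their distance from such shares is no measure of enrichment. In DMSO 1 of the 10, ERD10, had a peak, against 0.849% of all protein-coding genes, and ERD10 was also the only member with a peak in both lists, a state shared by 0.762% of protein-coding genes. The tunicamycin peaks of COR47, ERD14 and KIN2 overlapped no DMSO peak (1.49% of protein-coding genes had such a peak). The same 3 genes stood in the authors' tunicamycin-specific list, which named 1.52% of protein-coding genes. That list is drawn from the tunicamycin list and also holds peaks that overlap a DMSO peak, such as its highest-scoring one (5.82). It is therefore no separate check that a DMSO peak is absent. With the strongest 50% of each list, 2 members (ERD10 and COR47) had a tunicamycin peak and 1 (COR47) had one without a DMSO overlap. With peaks of directly neighbouring genes counted too, 5 members had a tunicamycin peak and 2 (ERD10 and COR47) a DMSO peak. Shares over all protein-coding genes under these changed rules are not given here. The counts under them are therefore not to be read beside the percentages above. No peak in any of the 3 lists was assigned to RAB18, LTI30, KIN1, COR15A, RD29A or RD29B.

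**Figure D1:**
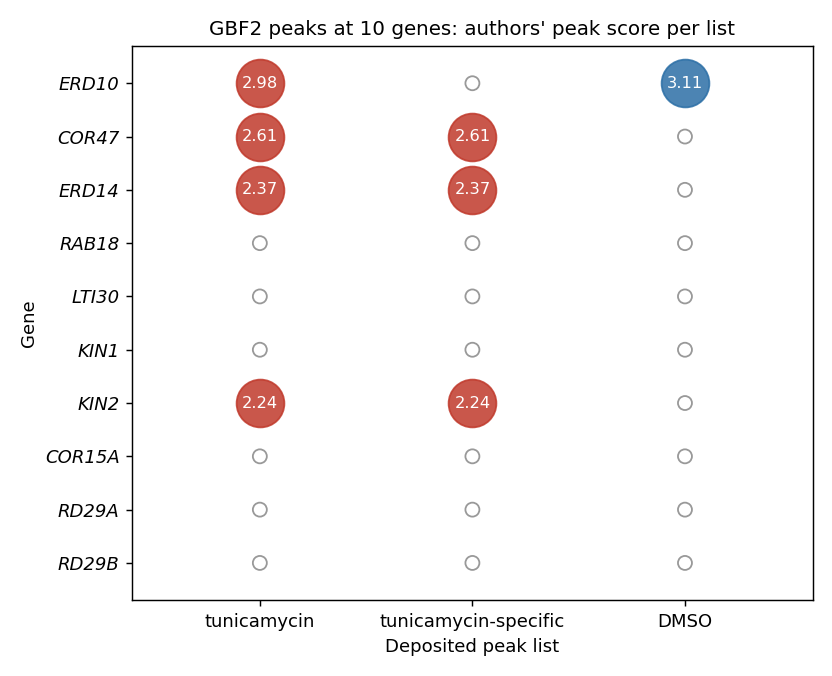
Authors' peak score for each of the 10 genes (rows) in the tunicamycin, tunicamycin-specific and DMSO lists (columns). Filled circles carry the score of an assigned peak and small open circles mark no assigned peak. ERD10 has a peak in the tunicamycin list (2.98) and in the DMSO list (3.11), while COR47, ERD14 and KIN2 have peaks in both tunicamycin lists and none in the DMSO list.

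ERD10 and COR47 code for acidic dehydrins and lie side by side in the gene order of the reference table, on the same strand per the files. ERD10, which responds to dehydration and cold, had the highest score of the 4 genes in the tunicamycin list, 2.98 at rank 121 of 767, at chromosome 1, 7089344 to 7090974 (TAIR10 coordinates throughout). In the DMSO list its peak scored 3.11 at rank 122 of 320, at chromosome 1, 7089653 to 7090638. In the tunicamycin list 15.6% of peaks scored higher than the ERD10 peak, and in the DMSO list 37.8% did. The tunicamycin list is longer, so these ranks can show neither a change in binding nor the lack of one.

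The ERD10 peak was wider after tunicamycin, 1631 bp against 986 bp in DMSO, and enclosed the whole DMSO peak. It began 309 bp before and ended 336 bp after the DMSO peak, and the midpoints of both peaks were 13.5 bp apart. Among 265 peaks that overlapped exactly 1 peak of the other list, the ratio of tunicamycin to DMSO width had a median of 1.02 (quartiles 0.947 and 1.13), and at ERD10 it was 1.65. The ratio was higher in 6 of the 265 pairs. The midpoint distance had a median of 38.5 bp and was smaller than at ERD10 in 63 pairs. Peak width also depends on read depth, which is unknown, and no replicate value stands behind the ratio.

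COR47, the dehydrin gene next to ERD10, had a peak of 1180 bp after tunicamycin (chromosome 1, 7085935 to 7087114). It scored 2.61 and ranked 260 of 767. In the tunicamycin-specific list it ranked 97 of 502. The stretch between the peaks of COR47 and ERD10 measured 2229 bp, so the 2 genes had separate peaks and not 1 that was split between them. The median distance of a tunicamycin peak to its nearest neighbour in the list was 33531 bp, and 77 of the 767 peaks had a neighbour closer than this pair. In the DMSO list the ERD10 peak stood without a partner at COR47.

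ERD14, which codes for another acidic dehydrin, had a tunicamycin peak at chromosome 1, 28588035 to 28589960. Its score was 2.37, at rank 468 of 767 and at rank 240 of the 502 specific peaks. The peak was the widest of the group, 1926 bp, and 27 of the 767 tunicamycin peaks were wider. Such a width was rare at this score: of the 384 peaks in the lower-scoring part of the list, 4 were wider. The next peak of the list lay 44345 bp away.

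**Figure D2:**
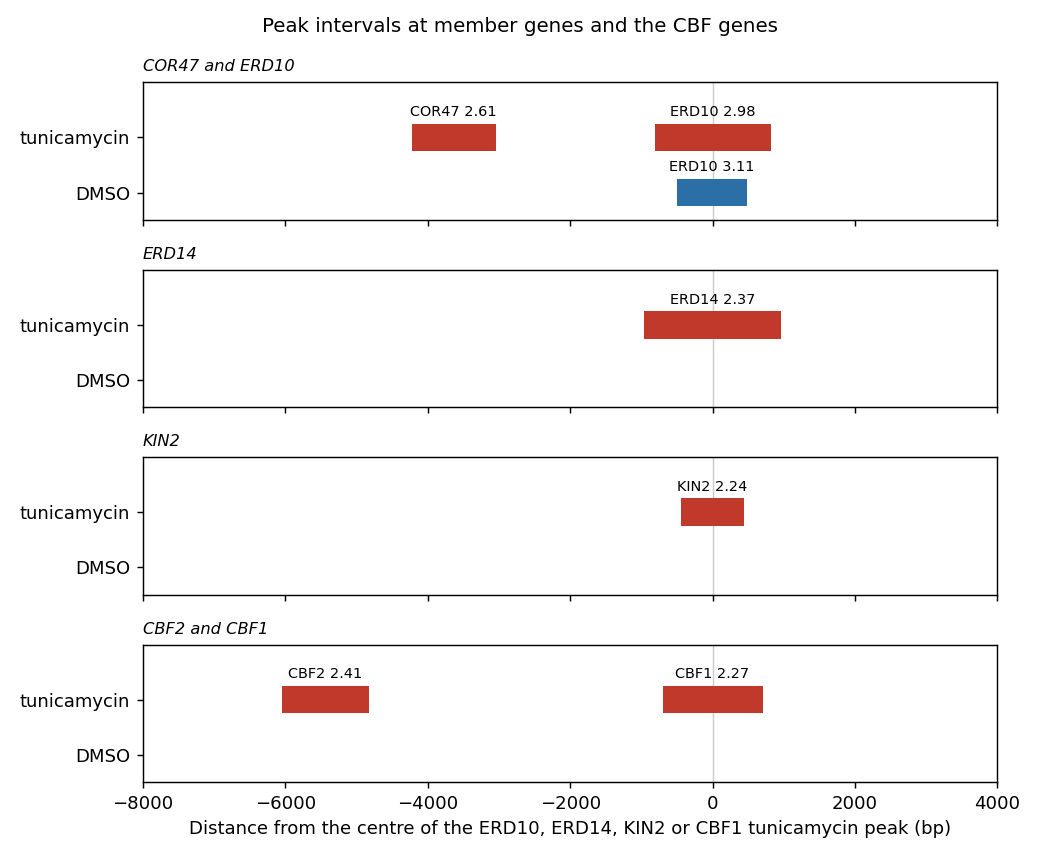
Extent of the peaks in the tunicamycin list (upper row of each panel) and the DMSO list (lower row) at COR47 and ERD10, at ERD14, at KIN2 and at CBF2 and CBF1, by distance in bp from the centre of the tunicamycin peak of ERD10, ERD14, KIN2 or CBF1; numbers are the authors' scores. The ERD10 tunicamycin peak (1631 bp) encloses the DMSO peak (986 bp), COR47 has a separate peak 2229 bp away, and no DMSO peak lies in the other panels.

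KIN1 and KIN2 code for small hydrophilic proteins induced by cold and abscisic acid, and they too are direct neighbours. Only KIN2 was assigned a peak, which spanned 886 bp of chromosome 5, 5211313 to 5212198, and came from the tunicamycin list. Its score of 2.24 was the lowest of the 4 genes, at rank 586 of 767 and at rank 349 of the specific list. The files name 1 gene per peak, so whether this peak also belongs to KIN1 cannot be told from them.

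Of the other members, RD29A and RD29B (LTI78 and LTI65 in the reference table), which code for related hydrophilic proteins named for their response to desiccation, are also neighbours, and neither had a peak. COR15A, which codes for a chloroplast protein that protects membranes in freezing, lies beside its relative COR15B, and LTI30 lies beside XERO1, a dehydrin gene, and none of these had a peak. Of these 5 pairs of neighbours, COR47 with ERD10 thus had peaks at both genes, KIN1 with KIN2 at 1 gene, and the others at none. Among 21871 pairs of directly neighbouring protein-coding genes, 949 had a tunicamycin peak at either gene and 16 at both, which is 1.69% of the 949. The 5 pairs come from genes chosen with earlier results known, and only 2 had any tunicamycin peak. No conclusion is therefore drawn from this comparison.

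The members without a peak differed in how far they lay from genes that had one. Counted in steps along the gene order, KIN1 was 1 step from a gene with a tunicamycin peak, COR15A 4, RAB18 12 and LTI30 15. RD29A and RD29B stood 60 and 61 steps away. Over the 26822 protein-coding genes without a tunicamycin peak the median was 19 steps (quartiles 8 and 41). RD29A and RD29B thus lay beyond the upper quartile, and KIN1 and COR15A below the lower one. The number of peaks around each gene was not counted. RAB18, a dehydrin gene long used as a marker of abscisic acid response, had no peak at either of its neighbours. The lowest score in the tunicamycin list was 1.89, and binding weaker than the authors' threshold would not be listed.

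All 4 tunicamycin peaks and the DMSO peak of the group were in the authors' promoter class of up to 1 kb, as were 583 of the 767 tunicamycin peaks. Of these 583, 388 overlapped no DMSO peak, COR47, ERD14 and KIN2 among them, and 195 did, ERD10 among them. The scores of the 4 genes ran from 2.24 to 2.98 with a median of 2.49, close to the median of the whole list, 2.47, and 2 of the 4 were above it. Their widths ran from 886 to 1926 bp with a median of 1406 bp, against 878 bp in the whole list, and all 4 were above that median.

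**Figure D3:**
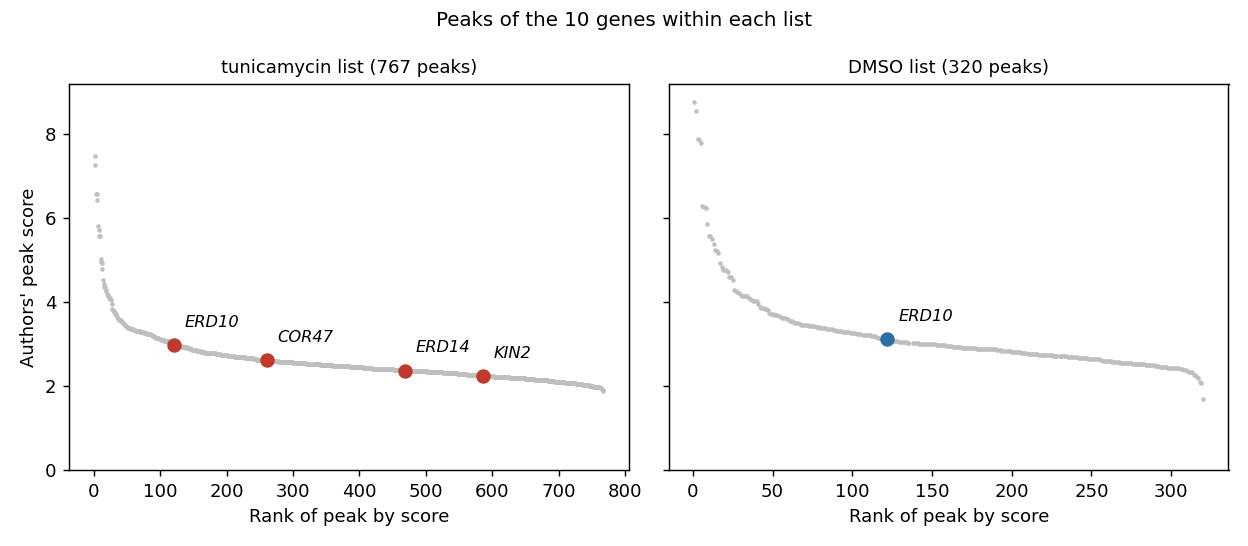
Authors' peak score (vertical axis, no unit) against the rank of each peak in the tunicamycin list (left) and the DMSO list (right). Grey points are all peaks and coloured points the members: ERD10, COR47, ERD14 and KIN2 at ranks 121, 260, 468 and 586 of the tunicamycin list and ERD10 at rank 122 of the DMSO list. Scores are not comparable between the panels.

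Whether a tunicamycin peak had a DMSO counterpart went with its strength, and each member was therefore read against the 76 peaks nearest to it in rank. Around ERD10, which overlapped a DMSO peak, 54 of the 76 did so as well (71.1%). Around COR47, which did not, 28 of 76 overlapped a DMSO peak (36.8%). Around ERD14 the count was 13 (17.1%) and around KIN2 8 (10.5%). The presence of ERD10 in both lists and the absence of the other 3 genes from the DMSO list were thus the more frequent state among peaks of like score. The part of peak strength and of list length in these differences was not tested.

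The widths of the 4 peaks were above the median width of the 76 peaks nearest in rank, by amounts that differed between genes. The 76 peaks nearest in rank to ERD14 had a median width of 851 bp, and 1 of them was wider than the ERD14 peak. For ERD10 the median was 955 bp and 5 of 76 were wider. For COR47 it was 904 bp, with 14 wider, and for KIN2 826 bp, with 23 wider. The difference from the median was thus largest at ERD14 and smallest at KIN2.

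**Figure D4:**
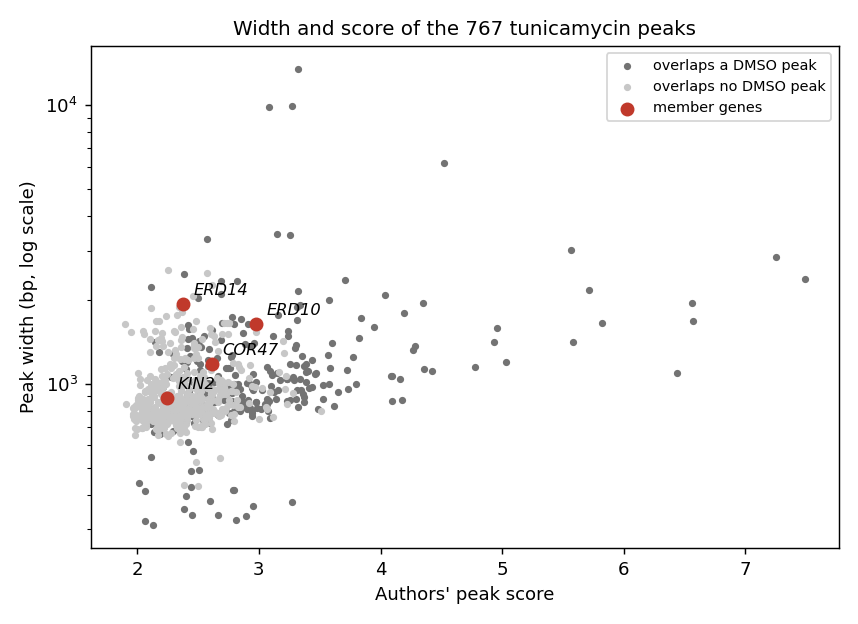
Width in bp (log scale) against the authors' score for the 767 tunicamycin peaks. Dark grey points overlap a DMSO peak, light grey points do not, and red points are the members; ERD14 (1926 bp) and ERD10 (1631 bp) are wider than most peaks of like score (1 and 5 of the 76 nearest in rank are wider), and KIN2 (886 bp) lies near the list's median of 878 bp.

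The genes with scores nearest to those of the members were of varied kinds. Directly above ERD10 in the tunicamycin list stood AT5G54530 (2.98) and directly below it CRT1B, a calreticulin gene of the endoplasmic reticulum (2.98). COR47 stood between GATL3, a galacturonosyltransferase-like gene (2.61), and HAI1, a protein phosphatase gene of abscisic acid signalling (2.61), whose peaks also had no DMSO overlap. ERD14 stood between the expansin-like gene EXLA2 (2.38) and AT5G28400 (2.37), and KIN2 between AT5G16810 (2.25) and EMB2754 (2.24). By rank percentile in both lists, over the 256 genes with a peak in each, the genes most like ERD10 were AT4G33980, AT2G44660 and SAG29, a SWEET sugar transporter gene. Their summed differences were 2.58, 3.99 and 4.01 percentile points, with ranks of 136, 100 and 135 in the tunicamycin list and 120, 126 and 129 in the DMSO list.

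The pathway around these genes was read from 6 further lists with 48 genes: other dehydrins, other cold-regulated proteins, CBF and DREB2 factors with their regulators, abscisic acid bZIP factors, other late-embryogenesis and early-dehydration proteins, and genes of osmolyte synthesis and other dehydration markers. In the tunicamycin list 5 of the 48 had a peak (3 with the strongest 50% of that list), and in the DMSO list 1 did. The counts of 5 and 1, over the whole lists, are to be read beside the 2.27% and 0.849% of all protein-coding genes. The 6 lists were also chosen with earlier results of these data known, so the counts are no measure of enrichment. None of the 5 other dehydrin genes, the 6 abscisic acid bZIP genes (ABF1 to ABF4 among them) or the 12 listed late-embryogenesis and early-dehydration genes had a peak. ERD15, an early-dehydration gene outside these lists, did have a tunicamycin peak, described under Other observations.

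Among the CBF and DREB2 factors with their regulators, 2 of 10 genes had a tunicamycin peak, CBF1 and CBF2, beside 2.27% of all protein-coding genes. Both peaks were without a DMSO overlap (1.49% of protein-coding genes had such a peak), and 0 of the 10 genes had a DMSO peak. CBF1, CBF2 and CBF3 are activators of COR genes in the cold and form 1 cluster. CBF2 had a score of 2.41 at rank 430, in the promoter class, at chromosome 4, 13015605 to 13016822. CBF1 had a score of 2.27 at rank 565, at chromosome 4, 13020947 to 13022350, in the 3′ UTR class. The stretch between both peaks was 4124 bp. CBF3, which lies between CBF2 and CBF1 in the gene order, was assigned no peak, and since each peak is given 1 gene, the files do not say whether either peak serves it. Of the 76 peaks nearest in rank, 27 overlapped a DMSO peak around CBF2 and 7 around CBF1.

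Galactinol synthases start the synthesis of raffinose, a protective sugar. In the list of osmolyte synthesis and other dehydration markers, 2 of 9 genes had a tunicamycin peak, beside 2.27% of all protein-coding genes. Both are among the 3 listed galactinol synthase genes, and this subgroup is no measure of enrichment. GOLS2 was the only gene of the 6 lists with a peak in both treatments, a state shared by 0.762% of protein-coding genes. Its tunicamycin peak scored 2.95 at rank 127 of 767, at chromosome 1, 21206749 to 21207698, and its DMSO peak 4.05 at rank 37 of 320, at chromosome 1, 21206679 to 21207794. The GOLS2 peak measured 950 bp after tunicamycin and 1116 bp in DMSO, a ratio of 0.851, against 1.65 at ERD10. GOLS3 had a peak without a DMSO overlap (2.67, rank 234, chromosome 1, 3019142 to 3020001), as 1.49% of protein-coding genes did.

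COR413IM2 (COR314-TM2 in the reference table), which codes for a cold-regulated protein of the chloroplast inner membrane, was the 1 gene of 6 in its list with a peak. It scored 2.63 at rank 250 of the tunicamycin list, at chromosome 1, 10287649 to 10288587, without a DMSO overlap. Its neighbour COR413IM1 had none. CBF1, CBF2, GOLS3 and COR413IM2 also stood in the tunicamycin-specific list. Over all protein-coding genes, 2.27% had a tunicamycin peak, 1.49% one without a DMSO overlap and 1.52% a peak in the specific list.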

How the data were processed

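The authors deposited 3 peak lists, each peak with a score (signal value per the file headers), its width, a position class and 1 gene. MACS2 2.1.2, SAMtools 1.8, Bowtie 1.1.2, cutadapt 1.8.1, FastQC 0.11.5 and the build TAIR10 are listed in the submitters' processing notes. Not given in the sources used here are settings, thresholds, pooling of replicates and use of input. Library depths are unknown. Peaks were ranked by score within a list. Peaks sharing at least 1 bp were called overlapping, a rule checked on simulated intervals. These overlapped over most of their width or not at all, so small overlaps were not checked. Names, kinds and order of genes came from a RefSeq table of TAIR10.1, whose coordinates were not used beside peaks; 727 of 744 tunicamycin, 482 of 492 specific and 285 of 292 DMSO gene IDs matched. Members and lists were chosen with earlier results of these data known. Most named genes followed a rule: members, listed genes with a peak, CBF and ABF genes, rank neighbours, and the 3 genes most like ERD10. Outside the rule, XERO1, COR15B and COR413IM1 were named as neighbours without a peak. RD28, GRP2, COR27 and ERD15 were named after a look at the peaks. Promoter and protein sequences were not analysed here, so the planned G-box search was not run. Alternatives covered peak strength, class, overlap rule and gene assignment. Python 3.11.15, pandas 2.3.3, numpy 2.4.6 and matplotlib 3.10.9 were used.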

Additional observations from a re-analysis of the deposited data

How the results depend on the processing

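Of 15 alternatives to the 6 counts, 11 gave a count within 1.5 times. Shares over all protein-coding genes under the alternatives are not given here. With the strongest 50% of the list, members with a tunicamycin peak came to 2 (ERD10 and COR47) and pathway genes to 3 (GOLS2, GOLS3 and COR413IM2). With the strongest 50% of each list, members with a tunicamycin peak and no DMSO overlap came to 1 (COR47). These counts are lower because fewer peaks enter. Where a peak assigned to a directly adjacent gene also counted, members in the DMSO list came to 2, since COR47 neighbours ERD10. The 50% overlap rule, midpoints within 200 bp and a comparison by gene each left 3 members without a DMSO counterpart. Leaving out replicates was not run, since the lists give no values per library. No paired analysis was possible because the peak lists carry no replicate columns. The search for the G-box was not run, as no promoter sequence was used.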

Other observations

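Beyond the lists, 33 protein-coding genes carry cold, dehydration, desiccation, low temperature or freezing among their names in the gene table, and 4 of them had a tunicamycin peak and 1 a DMSO peak, beside 2.27% and 0.849% of all protein-coding genes. The choice followed a look at the peaks, so the counts describe these genes and support nothing further, and all of the peaks carried the up to 1 kb promoter class. RD28, an aquaporin gene named for its response to desiccation, had peaks in both lists, scoring 2.51 after tunicamycin (rank 348) and 3.03 in DMSO (rank 139). GRP2, which codes for a cold shock domain protein, had a tunicamycin peak without a DMSO overlap (2.75, rank 193). COR27, a cold-regulated gene known as a repressor in the circadian clock, had one with a score of 2.49 at rank 360. ERD15, an early-dehydration gene that codes for a small acidic protein and not a dehydrin, had the weakest, 2.16 at rank 659. In all, 10 of the 55 protein-coding genes with such names had a tunicamycin peak and 2 a DMSO peak, counts that include the members and listed genes described above.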
